A study of Mus musculus with 8 samples.

Results

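The genes described here are 48 genes of DNA replication and S phase, taken by symbol and read from the gene count table of every library. All 48 were found among the 24062 genes of those tables, and all 48 were among the 15789 genes left by a filter on low counts. They were sorted by role into 10 classes: the MCM helicase, the origin recognition complex, GINS, licensing and firing, polymerases and primase, the clamp and its loader, fork strand processing, nucleotide synthesis, cyclin E and E2F, and chromatin copying.

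The libraries are polyA RNA-seq of whole cerebella, each from 1 mouse pup at postnatal day 2, on a mixed C57BL/6 background. The 4 mutants were Math1-Cre; Sufu flox/-, that is, with Cre, 1 floxed and 1 null allele of Sufu. The 4 controls were littermates, which the series text gives as Sufu flox/+ and the sample labels only as control, and neither says whether they had Cre. One parent of every litter was Sufu flox/flox and Math1 mgfp/mgfp, so mutants and controls alike inherited a floxed Sufu allele and a Math1 allele with mGFP from it. Math1 (Atoh1) drives the Cre in precursors of cerebellar granule cells, and the recombined cells were therefore one part of the tissue sampled. Replicate numbers follow the order of deposition and pair no samples. The sample titles carry a letter of unstated meaning: P for controls 1 and 2 and mutants 1 and 2, and R for controls 3 and 4 and mutants 3 and 4.

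Copying of the genome proceeds in steps. In G1 the origin recognition complex, Cdc6 and Cdt1 load the ring of Mcm2 to Mcm7 onto DNA, a step called licensing, and geminin (Gmnn) blocks Cdt1 once S phase has begun. The kinases Cdc7-Dbf4 and cyclin E-Cdk2 then fire the origins by joining Cdc45 and GINS to the MCM ring, and polymerases held by the Pcna clamp copy both strands. Transcription factors of the E2F family switch on most of these genes at the entry to S phase. In the cerebellum of the newborn mouse, granule cell precursors divide in the external granule layer in response to Sonic hedgehog, and Sufu is an inhibitor of that pathway.

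The total of gene counts was 21479565 in the shallowest and 26638284 in the deepest library, with 18739 to 19456 genes detected by at least 1 count. Levels are in CPM, counts scaled to a common library size by the TMM method. Sufu, the targeted gene, stood at 47.7, 50.97, 55.9 and 60.7 CPM in controls 1 to 4 and 31.7, 34.4, 36.8 and 39.8 CPM in mutants 1 to 4. All 4 mutants were below all 4 controls, and the log2 fold change of Sufu was -0.59 ± 0.11 (SE) over all 8 libraries, -0.58 ± 0.10 (SE) within letter P and -0.61 ± 0.10 (SE) within letter R. Over all 8 libraries edgeR's quasi-likelihood test, with Benjamini-Hochberg adjustment, called 0 of 15789 genes at an adjusted p under 0.05. At an unadjusted p under 0.05 it gave 1995 genes (12.6%), limma-voom called 0 genes, and DESeq2 called 51 genes (0.243% of the 20954 it tested), none of them a replication gene of the list.

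Every one of the 48 replication genes had a higher fitted mean in mutant than in control cerebella, and none passed the adjusted threshold. Across all genes tested, 52.3% had a higher mean in the mutants and 0% were called. The median log2 fold change was 0.37 for the 48 genes and 0.01 for all genes tested, and the 48 values ran from 0.045 for Orc6 to 0.57 for Pole, with standard errors of 0.093 to 0.26. Of the 48, 19 had an unadjusted p under 0.05 with a higher mean, against 6.94% of all genes. With mutant 4 left out, that count fell from 19 to 5, and the count over all genes tested fell from 1095 to 475. In 5 genes, Mcm6, Gins3, Cdc7, Pole and Rfc1, every mutant library lay above every control, which 3.6% of all genes also did. In bulk tissue, more cells in S phase and more RNA of these genes per cell cannot be told apart.

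The mutants were not alike. Mutant 4 was the highest of the 8 libraries for 47 of the 48 genes, against 25% of all genes, and the exception was Orc6, whose highest library was control 2. Mutant 4 came first and mutant 3 next for 43 of the 48, against 12.1% of all genes. The score of the 48 genes, their mean log2 CPM less the mean of the 4 controls, was -0.037, -0.0073, -0.060 and 0.10 in controls 1 to 4 and -0.020, 0.063, 0.46 and 0.74 in mutants 1 to 4. Mutants 3 and 4 thus lay above all controls and mutants 1 and 2 lay inside the range of the controls. With mutant 4 left out, the remaining libraries gave the 48 genes a median of 0.19.

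**Figure D1:**
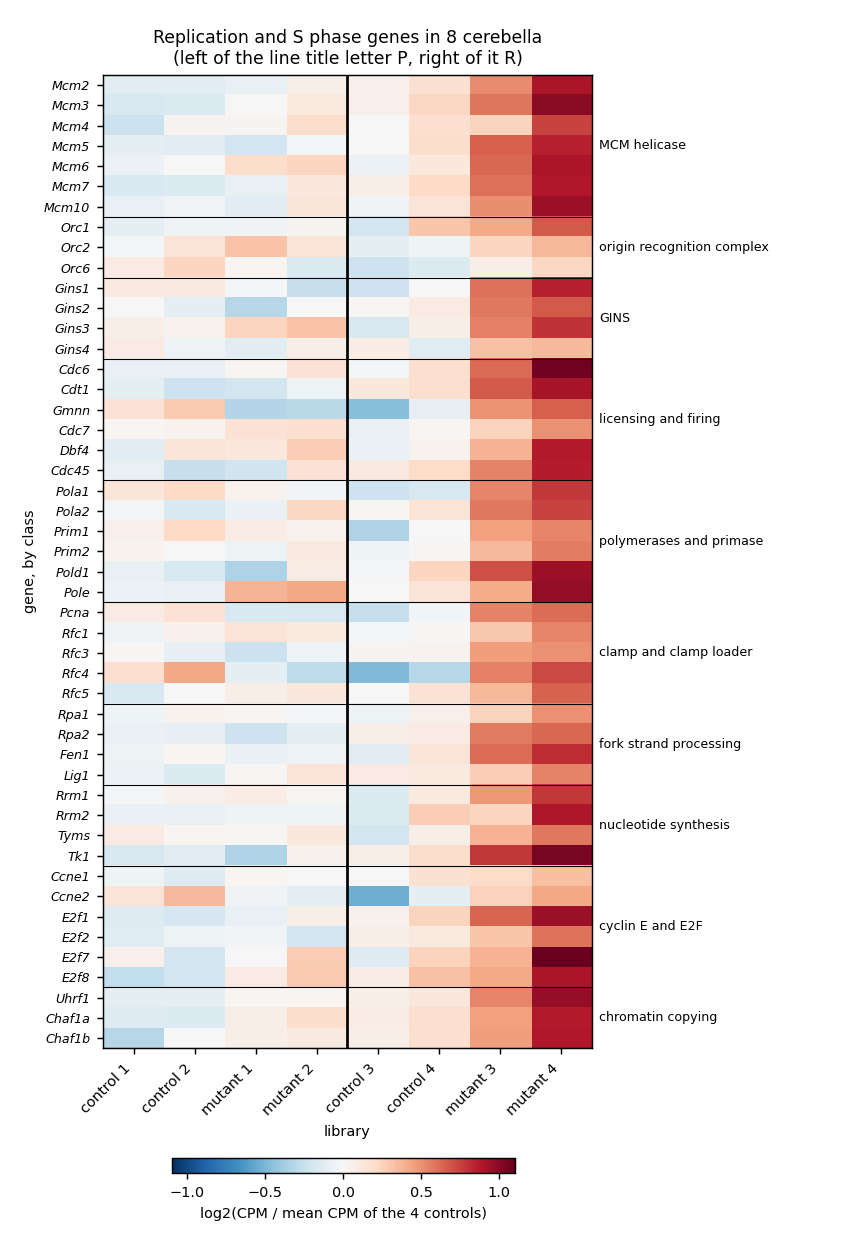
Log2 of the CPM over the mean CPM of the 4 controls, as colour, for each of the 48 genes (rows, grouped by class) in each of the 8 libraries (columns, letter P left of the thick line and R right of it). The columns of mutants 3 and 4 are higher than the controls for nearly every gene, mutant 4 being the highest library for 47 of 48, and those of mutants 1 and 2 are near the controls for most genes.

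The genotype effect was therefore taken within each title letter, from 1 fit with a mean for each letter and genotype (2 libraries each). Within letter R, 36 of the 48 replication genes rose by the adjusted edgeR test and none fell, where 13.1% of all genes were called and 6.31% were called higher. Their log2 fold changes ran from 0.38 to 1.04 with adjusted p from 0.0174 up to the threshold, and the median over all 48 was 0.61, against 0.04 for all genes tested. Both mutants of letter R were above both controls for 47 of the 48, all but Rrm2, against 35.4% of all genes. All 6 genes of licensing and firing and all 6 polymerase and primase genes rose, with 6 of 7 MCM, 4 of 5 clamp, 3 of 4 GINS, 3 of 4 fork, 3 of 4 nucleotide and 2 of 3 chromatin genes, 2 of 6 of the cyclin E and E2F class, and 1 of 3 of the origin recognition complex. At an unadjusted p under 0.05, 47 of the 48 were higher within R, against 16.9% of all genes. The 12 that did not pass the adjusted threshold were Mcm4, Orc1, Orc6, Gins4, Rfc5, Lig1, Rrm2, Ccne1, E2f2, E2f7, E2f8 and Chaf1b.

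These calls rest on few libraries. With control 3 or control 4 left out, the test within letter R called 0 of the 48 (1 gene in all in each case, 0.00628% and 0.00629% of those tested), with medians of 0.52 and 0.70 over the 48. Without mutant 4 it called 4 of the 48, Mcm6, Pola1, Pcna and Rfc4 (0.95% of all genes), and the median was 0.44. Without mutant 3 it called 45 of the 48 (26.9% of all genes), with a median of 0.75. With 1 library left in an arm, that library is assumed to vary like the others.

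Within letter P, edgeR called 0 of the 48 genes and 0.019% of all genes (3 genes). The median log2 fold change of the 48 was 0.071, with standard errors of 0.096 to 0.24 per gene, and 32 values were above 0 against 50.2% of all genes. Both mutants of letter P were above both controls for 19 of the 48, against 23.1% of all genes, and below them for 8, against 23.2%. The 8 were Orc6, Gins1, Gmnn, Pola1, Pcna, Rfc4, Rpa2 and Ccne2. At an unadjusted p under 0.05, 2 of the 48, Pole and E2f8, were higher, against 4.95% of all genes. Gmnn, Pcna and Rfc4 were lower at that threshold, and the share of all genes that were lower there was not taken. The lowest edgeR adjusted p of the 48 within P was 0.248.

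The difference between letters was itself tested as an interaction. The genotype effect was larger within letter R than within letter P for all 48 genes, where 51.9% of all genes had a larger effect in R, and the median of the difference was 0.50 on the log2 scale. The edgeR interaction test called 7 of the 48, Rfc4, Pcna, Pola1, Gmnn, Gins1, Rpa2 and Fen1, all larger in R, against 3.2% of all genes called and 2.24% called larger in R. Their differences ran from 0.61 for Rpa2 to 1.54 for Rfc4, with adjusted p of 0.0134 to 0.0496. For Sufu the difference was -0.028 ± 0.14 (SE), with an edgeR adjusted p of 0.929. With each library left out in turn, the differences between letters of the 7 called genes kept their sign. So did those of all the other genes of the 48 except Mcm4, Pole, Lig1, Ccne1 and E2f8. The lowest values in those fits were 1.40 for Rfc4, 1.21 for Gmnn, 0.94 for Gins1 and 0.90 for Pola1. For Pcna, Fen1 and Rpa2 they were 0.91, 0.62 and 0.55. The calls themselves depended on which libraries were kept. None of the 48 was called without control 2 (0.0504% of all genes called), control 3 (0.0126%), control 4 (0.0377%), mutant 1 (0.245%) or mutant 2 (0.0063%), and Rfc4 alone was called without control 1 (0.0944%). Without mutant 4 the test called Gmnn, Pcna, Pola1 and Rfc4 (2.52% of all genes), and without mutant 3 it called 28 of the 48 (13.5% of all genes). Between the controls of letters R and P, a comparison added after the data were seen, 0 of the 48 and 1.17% of all genes were called. The lowest edgeR adjusted p there was 0.0526, for Rfc4, whose log2 difference of R controls less P controls was -0.71. For the other genes called in the interaction test this difference was -0.49 for Gmnn, -0.38 for Pola1, -0.26 for Pcna and -0.20 for Gins1. It was 0.031 for Fen1 and 0.16 for Rpa2. For Rfc4, Gmnn, Pola1 and Pcna the R controls were thus lower than the P controls, and the R mutants higher than the P mutants.

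**Figure D2:**
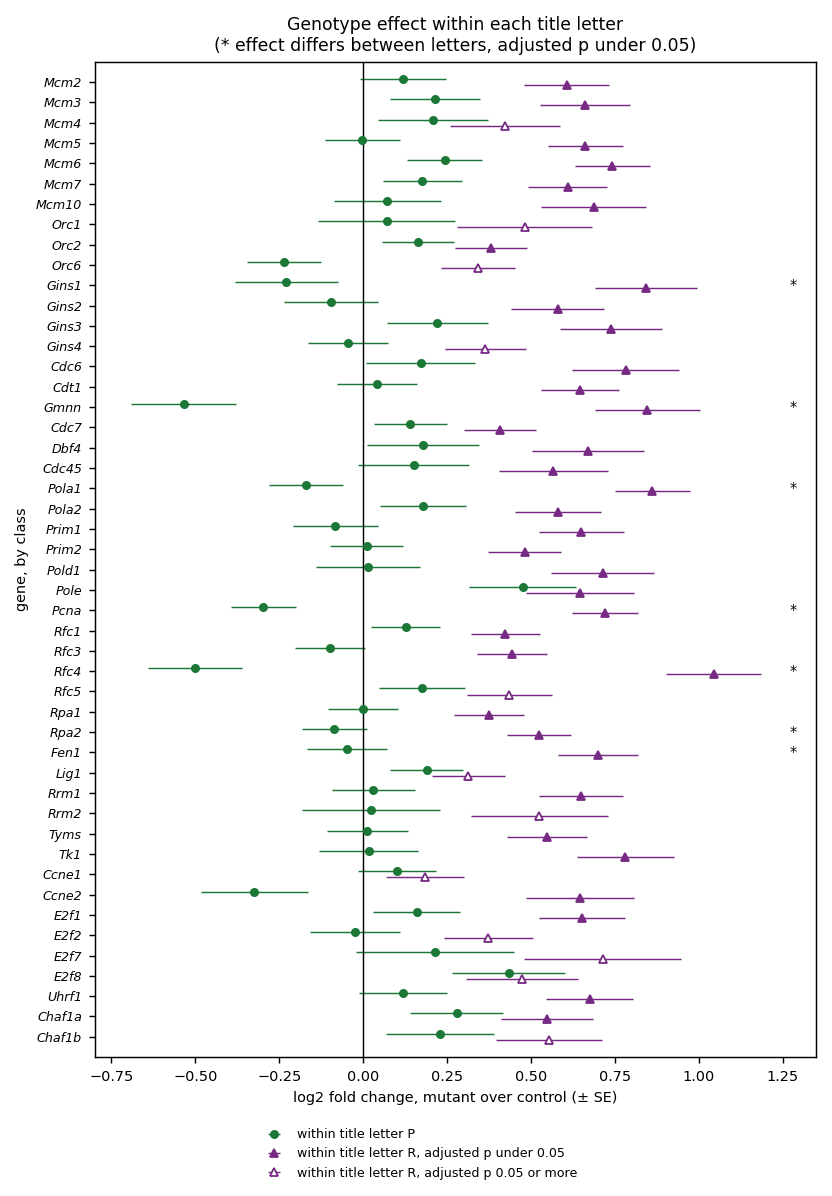
Log2 fold change of mutant against control for each of the 48 genes within title letter P and within title letter R (log2 scale, bars are standard errors from the edgeR fit, 2 libraries per letter and genotype; filled triangles passed within R and asterisks mark the 7 genes whose effect differed between letters). The R values lie above the P values for all 48 genes, and 16 of the P values are below 0.

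The MCM proteins form the ring-shaped helicase that opens the DNA ahead of the fork, and Mcm10 is a firing factor that helps start it. Mcm6 stood at 109, 115, 109 and 123 CPM in controls 1 to 4 and 130.5, 135, 177 and 213 CPM in mutants 1 to 4. The lowest mutant was above the highest control, and mutants 3 and 4 were the highest of all, with a log2 fold change of 0.52 ± 0.15 (SE) over 8 libraries and 0.74 ± 0.11 (SE) within letter R (edgeR adjusted p = 0.0180). Mcm3 stood at 56.4, 57.4, 66.2 and 74.3 CPM in controls 1 to 4 and 63.3, 68.7, 95.5 and 126 CPM in mutants 1 to 4. For Mcm3, mutants 3 and 4 were above every control and mutants 1 and 2 lay inside the controls' range, and within R the log2 fold change was 0.66 ± 0.13 (SE) (edgeR adjusted p = 0.0239). Mcm5 stood at 77.1, 76.5, 82.8 and 94.8 CPM in controls 1 to 4 and 71.6, 81.7, 131 and 150.1 CPM in mutants 1 to 4. Mutant 1 was the lowest library and mutants 3 and 4 the highest, so that the log2 fold change was -0.0029 ± 0.11 (SE) within P and 0.66 ± 0.11 (SE) within R. The same 2 mutants led for Mcm2, Mcm7 and Mcm10, which all rose within R by log2 fold changes of 0.61 to 0.69, while Mcm4 had 0.42 ± 0.16 (SE) and did not pass (edgeR adjusted p = 0.109).

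Of the origin recognition complex, which marks the origins, Orc2 stood at 39.3, 44.03, 36.9 and 38.3 CPM in controls 1 to 4 and 49.3, 43.99, 46.8 and 51.04 CPM in mutants 1 to 4. Mutants 1 and 4 were highest, and mutant 2 was just below control 2. All 3 genes had a higher mean within R, and only Orc2 passed the adjusted threshold (log2 fold change 0.38 ± 0.11 (SE), edgeR adjusted p = 0.0483). Orc1, the largest subunit, stood at 4.88, 5.11, 4.57 and 6.53 CPM in controls 1 to 4 and 5.12, 5.37, 7.03 and 8.44 CPM in mutants 1 to 4. Its highest levels were in mutants 3 and 4, and control 4 came next, above mutants 1 and 2. Within R the log2 fold change of Orc1 was 0.48 ± 0.20 (SE) and did not pass (edgeR adjusted p = 0.131). Orc6 stood at 40.5, 44.7, 32.4 and 34.2 CPM in controls 1 to 4 and 38.4, 33.9, 39.8 and 44.5 CPM in mutants 1 to 4. Over 8 libraries its groups overlapped: controls 1 and 2 were as high as mutants 3 and 4, and the log2 fold change was -0.24 ± 0.11 (SE) within P and 0.34 ± 0.11 (SE) within R, neither past the adjusted threshold.

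GINS is the complex of Gins1 to Gins4 that, with Cdc45, activates the MCM ring. Gins3 stood at 8.60, 8.47, 7.27 and 8.59 CPM in controls 1 to 4 and 9.67, 10.2, 12.1 and 14.3 CPM in mutants 1 to 4. Every mutant was above every control, and control 3 was the lowest library. Within R, Gins3 rose by a log2 fold change of 0.74 ± 0.15 (SE) (edgeR adjusted p = 0.0246). Gins1 stood at 11.5, 11.5, 9.19 and 10.8 CPM in controls 1 to 4 and 10.6, 9.02, 16.4 and 19.4 CPM in mutants 1 to 4. Mutant 2 was the lowest library and mutants 3 and 4 the highest, and the genotype effect differed between letters by 1.07 ± 0.22 (SE) (edgeR adjusted p = 0.0391). Gins2 stood at 12.3, 11.4, 12.4 and 13.1 CPM in controls 1 to 4 and 9.93, 12.2, 18.4 and 19.7 CPM in mutants 1 to 4. Mutant 1 was lowest, mutant 2 lay among the controls, and mutants 3 and 4 were above all others. Gins4 stood at 24.2, 21.9, 23.99 and 20.7 CPM in controls 1 to 4 and 21.00, 23.7, 28.5 and 29.1 CPM in mutants 1 to 4. The R mutants were again highest, but the log2 fold change within R of 0.36 ± 0.12 (SE) did not pass.

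Among the genes of licensing and firing, Cdc7, the kinase that fires licensed origins, stood at 46.9, 47.5, 43.6 and 46.99 CPM in controls 1 to 4 and 51.7, 52.4, 54.7 and 65.5 CPM in mutants 1 to 4. Every mutant was above every control, and mutants 1 to 3 were close together below mutant 4. Dbf4, the activating subunit of Cdc7, stood at 21.8, 26.1, 22.5 and 24.3 CPM in controls 1 to 4 and 25.6, 28.5, 30.9 and 43.4 CPM in mutants 1 to 4. Mutant 4 was far above the other libraries and mutant 1 lay within the range of the controls. Within R, Cdc7 and Dbf4 rose by log2 fold changes of 0.41 ± 0.11 (SE) and 0.67 ± 0.17 (SE). Gmnn, the inhibitor of Cdt1, stood at 12.2, 13.3, 7.86 and 10.2 CPM in controls 1 to 4 and 8.70, 8.85, 15.3 and 17.1 CPM in mutants 1 to 4. Within P both mutants were below both controls, within R both were above both controls, and the effects of -0.53 ± 0.16 (SE) and 0.85 ± 0.16 (SE) differed by 1.38 ± 0.22 (SE) (edgeR adjusted p = 0.0229). The licensing factors Cdt1 and Cdc6 and the helicase activator Cdc45 had their highest levels in mutants 4 and 3, and within R they rose by log2 fold changes of 0.65, 0.78 and 0.57.

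Pole, the catalytic subunit of the leading strand polymerase epsilon, had the largest log2 fold change of the 48 genes over all libraries, 0.57 ± 0.14 (SE). It stood at 35.6, 35.3, 37.2 and 41.03 CPM in controls 1 to 4 and 48.5, 50.1, 49.6 and 72.7 CPM in mutants 1 to 4. All mutants were above all controls, mutants 1 to 3 were nearly level and mutant 4 stood apart, and the log2 fold changes of 0.47 within P and 0.65 within R differed by 0.17 ± 0.23 (SE). In DESeq2 the adjusted p of Pole over all libraries was 0.0545. Pola2, a subunit of the polymerase alpha and primase complex that lays down primers, stood at 30.3, 27.4, 31.1 and 33.99 CPM in controls 1 to 4 and 29.2, 36.00, 45.97 and 51.3 CPM in mutants 1 to 4. Mutant 1 lay among the controls and the other mutants above them. Pola1, the catalytic subunit of that complex, stood at 31.6, 33.5, 24.6 and 25.6 CPM in controls 1 to 4 and 29.6, 28.3, 41.7 and 49.4 CPM in mutants 1 to 4. The mutants of letter P were below their controls and those of letter R above them, and the difference between letters was 1.03 ± 0.16 (SE) (edgeR adjusted p = 0.0199). Pold1, the catalytic subunit of the lagging strand polymerase delta, stood at 40.8, 38.4, 42.7 and 51.1 CPM in controls 1 to 4 and 34.2, 45.8, 70.8 and 82.9 CPM in mutants 1 to 4. Mutant 1 was the lowest library of all and mutant 4 the highest. The primase subunits Prim1 and Prim2 rose within R by 0.65 and 0.48 on the log2 scale.

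Pcna is the ring that holds the polymerases on DNA, and the Rfc proteins load it. Rfc1, the large loader subunit, stood at 71.4, 75.99, 72.4 and 74.4 CPM in controls 1 to 4 and 81.7, 79.2, 90.1 and 107 CPM in mutants 1 to 4. All mutants were above all controls, mutants 1 and 2 by little, and the log2 fold change was 0.28 ± 0.10 (SE). Pcna stood at 184, 193, 145 and 169.5 CPM in controls 1 to 4 and 154, 153, 253 and 265 CPM in mutants 1 to 4. The levels crossed between letters: mutants 1 and 2 were below controls 1 and 2, mutants 3 and 4 above every control, and the effects of -0.30 ± 0.098 (SE) and 0.72 ± 0.098 (SE) differed by 1.02 ± 0.14 (SE) (edgeR adjusted p = 0.0153). Rfc4, a small loader subunit, stood at 16.5, 19.5, 10.4 and 11.6 CPM in controls 1 to 4 and 13.5, 11.9, 21.3 and 24.01 CPM in mutants 1 to 4. It showed the same crossing and the largest fold within R of the 48 genes, 2.06-fold, with a log2 fold change of 1.04 ± 0.14 (SE) against -0.50 ± 0.14 (SE) within P, and controls 3 and 4 were its lowest libraries. Rfc5 stood at 21.2, 24.00, 23.99 and 26.7 CPM in controls 1 to 4 and 25.1, 25.9, 30.9 and 37.6 CPM in mutants 1 to 4. Mutants 3 and 4 were highest and mutants 1 and 2 lay within the range of the controls, and within R its log2 fold change of 0.44 ± 0.13 (SE) missed the threshold (edgeR adjusted p = 0.0532), while Rfc3 rose by 0.44.

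**Figure D3:**
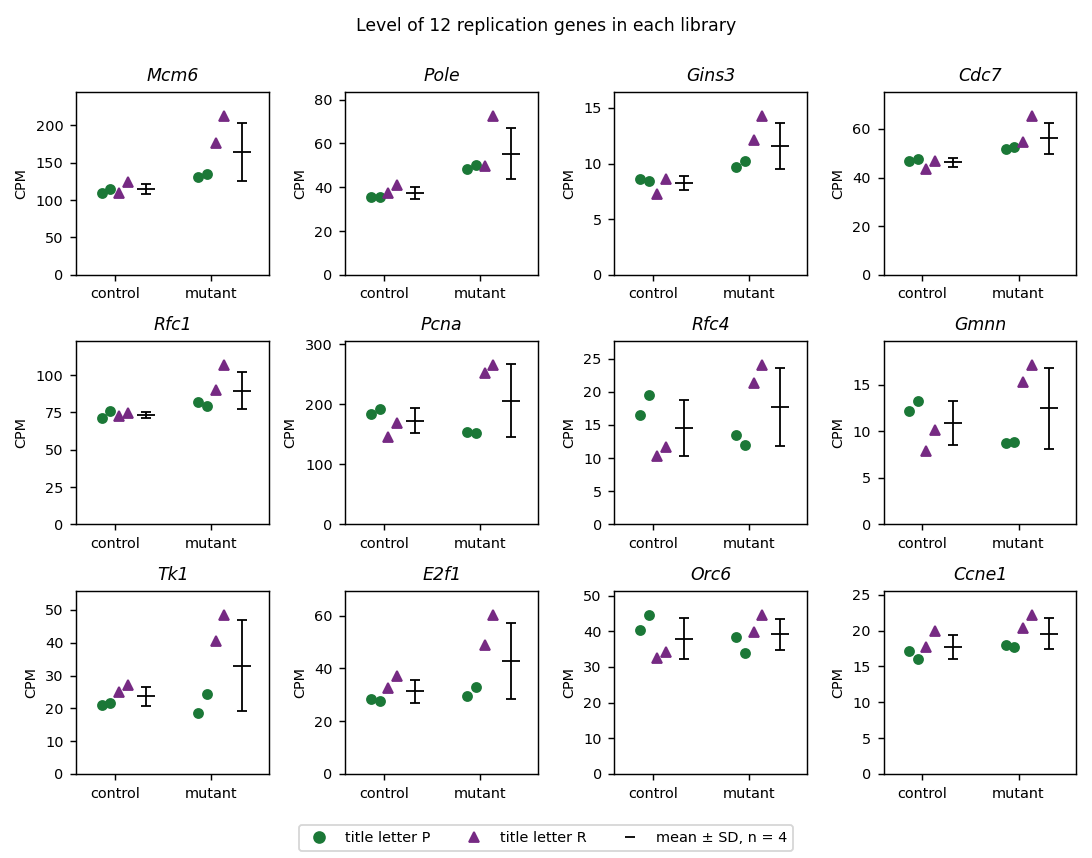
CPM in each library of 12 of the genes, controls and mutants side by side with letters P and R marked by shape and colour, and the mean ± SD of each group (n = 4) beside the points. Mcm6, Pole, Gins3, Cdc7 and Rfc1 show every mutant above every control, and in Pcna, Rfc4, Gmnn and Orc6 the mutants of letter P lie below the controls of letter P.

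At the fork, replication protein A coats single strands, the flap nuclease Fen1 trims Okazaki fragments and the ligase Lig1 joins them. Lig1 stood at 82.3, 77.6, 92.1 and 93.2 CPM in controls 1 to 4 and 87.2, 95.2, 104 and 126 CPM in mutants 1 to 4. Highest were mutants 3 and 4, mutant 2 was just above control 4, and the log2 fold change within R of 0.31 ± 0.11 (SE) did not pass. Fen1 stood at 30.3, 31.97, 28.9 and 34.7 CPM in controls 1 to 4 and 29.9, 30.3, 48.1 and 55.1 CPM in mutants 1 to 4. Mutants 1 and 2 were level with the controls and mutants 3 and 4 well above them, a difference between letters of 0.75 ± 0.17 (SE) (edgeR adjusted p = 0.0496). Rpa1 stood at 78.8, 83.7, 78.4 and 84.7 CPM in controls 1 to 4 and 82.02, 80.4, 96.4 and 115 CPM in mutants 1 to 4. Rpa2 stood at 26.9, 26.5, 29.5 and 30.1 CPM in controls 1 to 4 and 24.1, 26.2, 41.9 and 43.8 CPM in mutants 1 to 4. For both subunits mutants 3 and 4 were above all other libraries, and for Rpa2 the mutants of letter P were below all 4 controls. The difference between letters was 0.61 ± 0.14 (SE) for Rpa2 (edgeR adjusted p = 0.0481).

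The enzymes of nucleotide synthesis supply the building blocks: Rrm1 and Rrm2 form ribonucleotide reductase, and Tyms and Tk1 make thymidylate. Rrm1 stood at 133, 139.9, 122 and 146 CPM in controls 1 to 4 and 143, 136, 188 and 231 CPM in mutants 1 to 4. Rrm2 stood at 62.9, 62.3, 59.3 and 79.7 CPM in controls 1 to 4 and 63.7, 63.5, 77.6 and 122 CPM in mutants 1 to 4. Mutants 3 and 4 were the highest for Rrm1, but for Rrm2 control 4 exceeded mutant 3, and mutant 4 alone stood clear of the rest. Tyms stood at 39.5, 37.6, 32.2 and 38.7 CPM in controls 1 to 4 and 37.6, 40.2, 48.2 and 55.5 CPM in mutants 1 to 4. Tk1 stood at 20.9, 21.7, 24.9 and 27.04 CPM in controls 1 to 4 and 18.6, 24.4, 40.5 and 48.6 CPM in mutants 1 to 4. In both, mutant 4 was highest and mutant 3 next, and mutant 1 was the lowest library for Tk1. Within R, Rrm1, Tyms and Tk1 rose by log2 fold changes of 0.65, 0.55 and 0.78, while Rrm2 had 0.53 ± 0.20 (SE) and did not pass. Within P the 4 genes of this class were nearly level, with log2 fold changes of 0.012 to 0.031. The tables also hold a Tyms pseudogene, Tyms-ps, with 0 to 5 counts per library.

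Cyclin E activates Cdk2 at the start of S phase, E2f1 and E2f2 switch on replication genes, and E2f7 and E2f8 repress them later in the cycle. E2f8 stood at 14.6, 15.2, 18.6 and 21.9 CPM in controls 1 to 4 and 18.7, 21.5, 23.5 and 32.7 CPM in mutants 1 to 4. Controls 1 and 2 were lowest, mutant 4 was highest, and the log2 fold changes of 0.43 ± 0.17 (SE) within P and 0.47 ± 0.17 (SE) within R were the most alike of the 48 genes. E2f7 stood at 21.3, 17.8, 18.6 and 24.4 CPM in controls 1 to 4 and 20.5, 24.9, 26.8 and 43.5 CPM in mutants 1 to 4. Mutant 4 alone stood clear of the other libraries. Ccne2 stood at 17.9, 20.8, 11.2 and 15.1 CPM in controls 1 to 4 and 15.8, 15.04, 19.3 and 21.8 CPM in mutants 1 to 4. Control 2 was second only to mutant 4, and the log2 fold changes were -0.32 ± 0.16 (SE) within P and 0.64 ± 0.16 (SE) within R (edgeR adjusted p = 0.0361 within R). E2f1 rose within R by 0.65, and Ccne1, with 0.18 ± 0.12 (SE), had the smallest effect within R of all 48 genes.

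The last class couples replication to chromatin: Chaf1a and Chaf1b place histones on new DNA, and Uhrf1 guides the copying of DNA methylation. Chaf1a stood at 33.3, 33.3, 38.98 and 41.7 CPM in controls 1 to 4 and 38.6, 42.1, 50.3 and 67.5 CPM in mutants 1 to 4. Uhrf1 stood at 89.95, 90.2, 101 and 105 CPM in controls 1 to 4 and 97.9, 97.7, 139.7 and 188 CPM in mutants 1 to 4. Chaf1b stood at 16.1, 20.02, 21.1 and 22.8 CPM in controls 1 to 4 and 21.00, 21.4, 27.4 and 36.8 CPM in mutants 1 to 4. Mutants 3 and 4 were above every control in all 3 genes, mutants 1 and 2 were above controls 1 and 2, and control 4 was the highest control. Within R, Uhrf1 and Chaf1a rose by log2 fold changes of 0.68 and 0.55, and Chaf1b had 0.55 ± 0.16 (SE) (edgeR adjusted p = 0.0506).

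Levels of different genes were compared as mean control CPM per kilobase of exon, with exon lengths from another annotation than the one used for counting, so these are approximate. Pcna was the highest of the 48 at 114 CPM per kb, and Mcm7 (34.5), Rrm1 (33.8) and Rrm2 (30.1) followed. The 6 genes of the MCM ring lay close together, at 19.2 to 34.5 CPM per kb, while Mcm10, which is not part of the ring, was at 4.11. Subunits of some other complexes were also close, with Rpa1 at 15.8 and Rpa2 at 15.6 CPM per kb, and those of the origin recognition complex and GINS spread more widely. Orc6 was at 23.8 and Orc1, the lowest of the 48, at 1.75 CPM per kb. Within GINS, Gins4 was at 16.8 and Gins3 at 3.04 CPM per kb.

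A second deposited table gives counts per exon bin, and it was used to ask whether the higher levels ran along whole genes. Of 691 tested bins of the 48 genes, 672 (97.25%) had a higher fitted mean in the mutants, against 51.67% of all tested bins. In 40 of the 48 genes every tested bin was higher, against 21.2% of all genes with a tested bin. The 8 with a lower bin were Orc1, Orc6, Gins3, Gmnn, Rpa1, Ccne1, Ccne2 and E2f2. Bins of a gene share reads and libraries, so they are not independent. The share of a gene's counts in each bin was tested by edgeR's diffSpliceDGE with Simes' method. It called 0 of the 48 genes and 0.00749% of all genes (1 of 13351), and at an unadjusted p under 0.05 it gave 0 of the 48 and 0.225% of all genes, the smallest p of the 48 being 0.454 for Gins3. edgeR's gene-level F test also called 0 of the 48, against 0.0225% of all genes, and gave 0 of the 48 at an unadjusted p under 0.05, against 0.599%.

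The promoters of these genes were searched for E2F sites, since E2F factors are the known common regulators of the group. RefSeq windows of 250 bases before to 50 after a start (build GRCm38.p6) were at hand for 40 of the 48 genes. The words TTTCCCGC, TTTGGCGC, TTTCGCGC and TTTGCCGC were searched on both strands, and matches may overlap. At least 1 word was found for 15 of the 40 genes (37.5%, exact 95% interval 22.7 to 54.2%), against 2.605% of 27025 genes with a window and 4.371% of 11713 tested genes with one. The windows of these 40 genes were also richer in CpG, with a median of 24 CpG against 7 in all windows, and CCAAT was found for 62.5% of the 40 genes against 41.06% of all. Matches are descriptions of letters, not measured binding.

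The whole 250 bases before the start of Mcm6 (chr1:128359706-128359955, minus strand) are shown because Mcm6 had non-overlapping groups and the most matches, 3 in all. All sequences are from RefSeq, 5′ to 3′ on the strand of the gene, with the E2F words in capitals. The first run of capitals holds TTTGGCGC at position -110 from the start and, overlapping it on the opposite strand, TTTCGCGC at position -106, and the second holds TTTGGCGC at position -47.
Mcm6: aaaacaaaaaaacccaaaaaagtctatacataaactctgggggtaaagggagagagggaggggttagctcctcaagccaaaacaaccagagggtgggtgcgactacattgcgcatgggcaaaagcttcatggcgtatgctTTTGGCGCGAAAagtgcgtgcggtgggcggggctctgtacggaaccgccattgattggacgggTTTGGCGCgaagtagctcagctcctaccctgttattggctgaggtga

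Stretches of 60 bases from the promoters of other genes of the group show how the word and its place vary between classes. The same words occur in genes that rose within letter R (Mcm5, Mcm7, Gins3, Cdc6, Pola1, Rfc3 and Uhrf1) and in genes that did not pass (Orc1 and E2f7).
Mcm5 (chr8:75109332-75109391, plus strand): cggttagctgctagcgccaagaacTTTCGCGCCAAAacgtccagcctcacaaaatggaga
Mcm7 (chr5:138172015-138172074, minus strand): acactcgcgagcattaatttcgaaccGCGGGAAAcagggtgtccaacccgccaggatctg
Orc1 (chr4:108579394-108579453, plus strand): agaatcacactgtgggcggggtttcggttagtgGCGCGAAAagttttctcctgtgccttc
Gins3 (chr8:95633492-95633551, plus strand): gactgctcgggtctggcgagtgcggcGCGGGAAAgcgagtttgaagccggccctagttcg
Cdc6 (chr11:98907987-98908046, plus strand): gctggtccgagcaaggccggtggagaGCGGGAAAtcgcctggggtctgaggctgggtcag
Pola1 (chrX:93632260-93632319, minus strand): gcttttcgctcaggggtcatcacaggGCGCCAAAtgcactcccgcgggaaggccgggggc
Rfc3 (chr5:151651209-151651268, minus strand): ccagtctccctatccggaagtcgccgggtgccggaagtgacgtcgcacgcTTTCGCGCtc
E2f7 (chr10:110745215-110745274, plus strand): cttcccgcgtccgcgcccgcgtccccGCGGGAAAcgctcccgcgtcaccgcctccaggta
Uhrf1 (chr17:56304102-56304161, plus strand): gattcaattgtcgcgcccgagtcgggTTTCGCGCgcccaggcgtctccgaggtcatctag
The promoter of Mcm5 carries a pair of overlapping words on opposite strands, as in Mcm6, and those of Mcm7, Gins3, E2f7 and Cdc6 carry TTTCCCGC on the opposite strand. In Orc1 and Rfc3 the word lies close to the start, at positions -27 and -10.

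**Figure D4:**
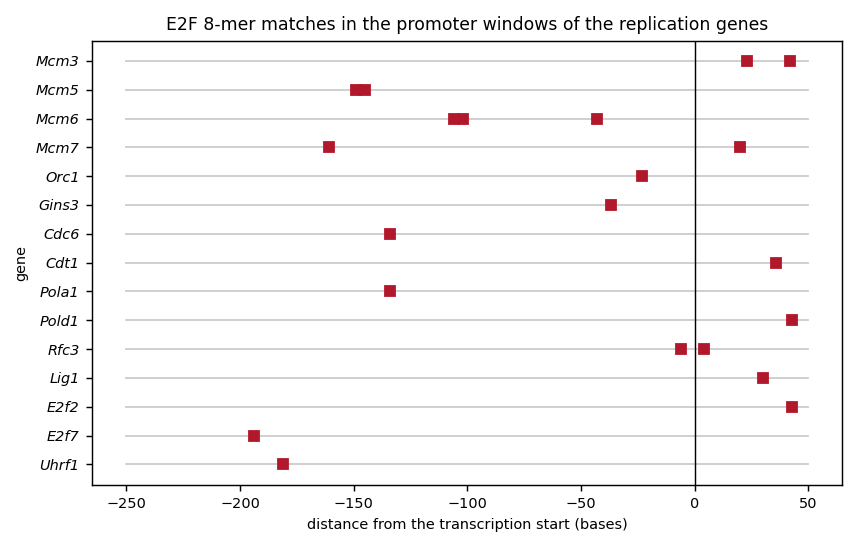
Place of each E2F word (squares, at the middle of the word) in the promoter windows of the 15 replication genes that hold one, in bases from the transcription start at 0, with a grey line for the window of 250 bases before to 50 after it. The words are spread over the window, and Mcm6, Mcm5, Mcm3, Mcm7 and Rfc3 hold more than 1.

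A further list held 44 replication and repair-linked genes outside the 48. Over all libraries 40 of the 44 had a higher mean in the mutants and 4 a lower one, and 0 were called, with a median log2 fold change of 0.28 (0.13 without mutant 4). Within letter R 25 rose and none fell, where 6.31% of all genes were called higher. Without mutant 4 the count within R was 1, and without control 3 or control 4 the test within R called 1 gene in all. Within letter P 24 were higher and 20 lower, where 50.2% of all genes were higher, and none of the 44 was called. Both mutants were above both controls for 14 of the 44, against 23.1% of all genes, and below them for 12, against 23.2%. Shmt1, a one-carbon enzyme that serves thymidylate synthesis, stood at 10.9, 12.5, 12.8 and 13.9 CPM in controls 1 to 4 and 14.8, 15.98, 24.4 and 29.7 CPM in mutants 1 to 4. All mutants were above all controls and mutant 4 was highest, with a log2 fold change within R of 1.02 ± 0.14 (SE) (edgeR adjusted p = 0.0174). The checkpoint factor Tipin and the checkpoint kinase Chek1 rose within R by 0.71 and 0.85 on the log2 scale. The interaction test called 8 of the 44, all larger in R, against 3.2% of all genes called and 2.24% called larger in R.

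All 20 genes of a G2 and mitosis list had a higher mean in the mutants over 8 libraries, 0 of them were called, and their median log2 fold change was 0.47 (0.26 without mutant 4). Within letter R 15 rose, where 6.31% of all genes were called higher, and without mutant 4 only 2 did. Within letter P none was called and the median was 0.16, and both mutants were above both controls for 14 of the 20, against 23.1% of all genes. Mki67, a marker of cycling cells, stood at 260.3, 281, 262 and 293 CPM in controls 1 to 4 and 354, 333, 365 and 548 CPM in mutants 1 to 4. All mutants were above all controls (log2 fold change 0.55 ± 0.15 (SE)). The kinase Cdk1, the topoisomerase Top2a and the cyclin Ccnb1 rose within R by 0.89, 0.88 and 0.86 on the log2 scale.

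Markers of the cells in the tissue also differed between the libraries, and not every list had the order of the replication genes. The choroid plexus markers, for one, were highest in mutant 2. The 11 granule cell precursor markers summed to 1395 to 1652 CPM in the controls and to 1465, 1814, 2013 and 2727 CPM in mutants 1 to 4. In the mutants 11 of 11 had a higher mean, against 52.3% of all genes. Atoh1, the transcription factor that defines these precursors, stood at 18.3, 18.3, 17.5 and 22.7 CPM in controls 1 to 4 and 17.1, 26.2, 34.96 and 48.8 CPM in mutants 1 to 4. Its highest levels were in mutants 3 and 4 and its lowest in mutant 1, and Atoh1 rose within R by 1.06 ± 0.23 (SE) on the log2 scale (edgeR adjusted p = 0.0279). Within R 5 of the 11 markers were called higher, against 6.31% of all genes. The median log2 fold change of the 11 there was 0.53, and 0.28 without mutant 4. Within P all 11 markers had a higher mean, with a median log2 fold change of 0.24, and 0 were called. Both P mutants were above both P controls for 7 of the 11, Atoh1 not among them, against 23.1% of all genes. The 11 hindbrain Hox genes, which mark tissue behind the cerebellum, summed to 118 to 205 CPM in the controls and to 169.9, 63.5, 97.2 and 6.47 CPM in mutants 1 to 4. Mutant 4, the highest library for replication genes, was thus the lowest for Hox genes.

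The 10 oligodendrocyte lineage markers summed to 1416 to 2085 CPM in the controls and 709 to 1401 CPM in the mutants, and the 9 microglial markers to 158 to 237 CPM and 124 to 189 CPM. The 8 choroid plexus markers summed to 1346 to 3144 CPM in the controls and 3408 to 5982 CPM in the mutants. The 10 endothelial and pericyte markers ran from 285 to 352 CPM and 321 to 453 CPM, and the 6 meningeal markers from 269 to 469 CPM and 285 to 386 CPM. Purkinje cell markers (8 genes) ran from 712 to 1088 CPM and 889.8 to 1325 CPM, and Bergmann glia and astroglia markers (9 genes) from 3046 to 3593 CPM and 2750.2 to 3508 CPM. Granule neuron markers (9 genes) summed to 2055 to 2893 CPM and 2179.8 to 2385 CPM, a sum in which the neuronal tubulin Tubb3 held 1477 CPM on average in the controls. Of these 9 genes, 6 had a higher mean in the mutants and 3 a lower one. Tubb3 and Rbfox3 fell within R, with log2 fold changes of -0.64 and -0.35, where 1064 of the 15789 genes tested were called lower. For both, controls 3 and 4 were the highest libraries, and R controls exceeded P controls by log2 differences of 0.43 and 0.54. All mutants were above controls 1 and 2 for Rbfox3. None of the genes of these cell type lists was at 0 in all libraries, whereas 2 of the 6 red blood cell genes were, and that list summed to 8.70 to 22.3 CPM. Reads that the counting assigned to no feature made up 14.2 and 15.1% of entries in controls 1 and 2 and 17.3 and 17.7% in mutants 1 and 2. They made up 12.2 and 13.4% in controls 3 and 4, and 12.8 and 13.7% in mutants 3 and 4. Whether these reads lay in introns, antisense or outside genes was not tested. The part of cell makeup, dissection and read assignment in the levels of the replication genes was not tested.

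**Figure D5:**
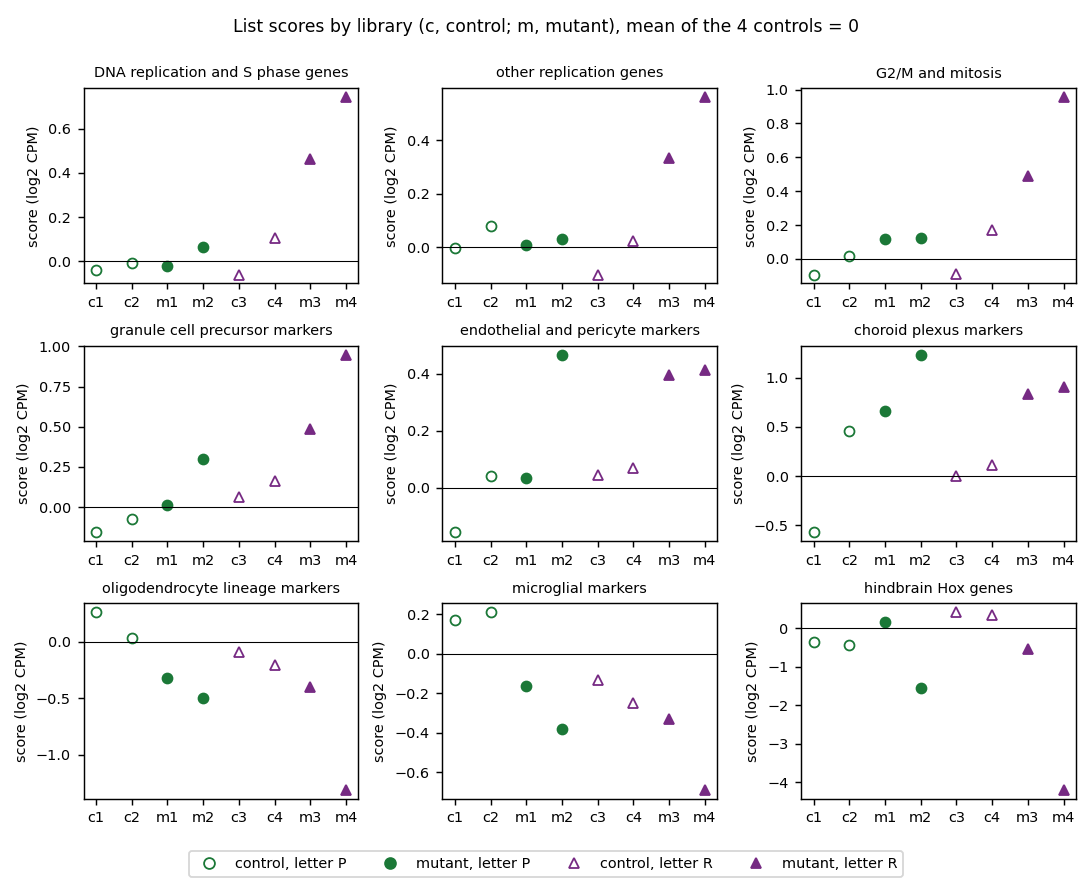
Score of each list in each of the 8 libraries, the mean log2 CPM of its genes less the mean of the 4 controls (log2 scale, points are libraries, with shape for the letter and filled symbols for mutants; 9 lists are drawn). The replication genes, the further replication genes, G2 and mitosis genes and granule cell precursor markers are highest in mutant 4, at 0.74, 0.56, 0.96 and 0.95, and the hindbrain Hox genes are lowest there, at -4.20.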

How the data were processed

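TRIzol RNA of each cerebellum was made into polyA TruSeq libraries, per the labels' protocols. The authors deposited whole-number counts per gene and per exon bin for each of 8 libraries, not normalized. The submitters' processing notes list TopHat, HTSeq, DESeq2 and mm9 and give no versions. The annotation and the strand setting of the counting are not given in the sources used here, so reads of overlapping or antisense genes may be mixed. Summary lines that name no gene (24.8 to 34.3% of entries) were left out.

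The gene test was that of edgeR 4.0.16 under R 4.3.3 (filterByExpr, TMM, robust quasi-likelihood F test, two-sided, Benjamini-Hochberg over 15789 genes, threshold 0.05), with genotype as the only term. Effects within title letters and their difference came from a fit with 4 letter-by-genotype means. Standard errors are the log2 fold change over the root of F. Bins were tested with diffSpliceDGE over 13351 genes. Log2 CPM used a prior count of 2. Alternatives were DESeq2 1.42.0, limma-voom (limma 3.58.1), other scalings, no filter, a title letter block and each library left out. The steps were tested on simulated data, and no libraries of a group agreed within counting noise.

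The 48 genes, the other lists and the tests were chosen with earlier results of these data known. Values per library are given for the 2 genes with the smallest p and the 1 with the largest in each class, for every gene of classes of 3 or 4 and for every gene whose groups do not overlap; Pola1 and Pcna were added after their values were seen. Exon lengths came from GENCODE M21 and promoters from RefSeq, both of build GRCm38, not the build of the counting, and were joined by symbol only; 8 genes had no promoter window (Mcm4, Gins1, Gins2, Gins4, Gmnn, Prim2, Pole and Ccne2).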

Additional observations from a re-analysis of the deposited data

Results flagged for a closer look

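The 7 replication genes whose genotype effect differed between title letters by the edgeR interaction test were Rfc4, with a log2 difference of 1.54 (R less P), Gmnn with 1.38, Gins1 with 1.07, Pola1 with 1.03, Pcna with 1.02, Fen1 with 0.75 and Rpa2 with 0.61. In all 7 both R mutants were above both R controls, which was also so for 47 of the 48 genes and 35.4% of all genes. Without control 2, 3 or 4 or mutant 1 or 2, none of the 7 was called.

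Of 144 groups of 4 libraries screened for a library far from the others, 7 were found, where chance gives about 1 in 20. For single genes these were Gins3, with control 3 low at 7.27 CPM, and Pole, with mutant 4 high at 72.7 CPM. The score of the cyclin E and E2F class was high in control 4, at 0.18. Among cell type lists, the Bergmann glia and astroglia score was low in control 1 (-0.059) and in mutant 2 (-0.27), and the endothelial and pericyte score was low in control 1 (-0.16) and in mutant 1 (0.034).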

How the results depend on the processing

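Over 17 settings of the genotype comparison, the fits within a letter and those without a library included, the 48 genes had a higher mean in 797 of 816 values, and none was called outside letter R, where the lowest adjusted p was 0.0545 (DESeq2). Called genes numbered 51 by DESeq2, 3 within letter P and 2061 within letter R, with 36 of the 48 called within R. The replicate numbers pair no samples, so the title letter served as the replicate block. With that block 0 genes and 0 of the 48 were called, and the median log2 fold change of the 48 was 0.32. The values that turned below 0 within P were -0.0029 for Mcm5, -0.24 for Orc6, -0.23 for Gins1, -0.096 for Gins2, -0.045 for Gins4, -0.53 for Gmnn, -0.17 for Pola1, -0.083 for Prim1, -0.30 for Pcna, -0.099 for Rfc3, -0.50 for Rfc4, -0.00033 for Rpa1, -0.086 for Rpa2, -0.049 for Fen1, -0.32 for Ccne2 and -0.024 for E2f2; the cause was not tested. Leaving out each library in turn gave 0 to 1 called genes over all libraries and 0 to 5 within P. It gave 1 to 4272 genes and 0 to 45 of the 48 within R, 1 to 2155 genes and 0 to 28 of the 48 for the interaction, 0 to 3 genes between the controls of the letters, and 1 to 2 genes for exon bin use. In those fits the log2 fold change of Orc6 ran from -0.027 (without mutant 4) to 0.11, and it was also below 0 without control 3 and without control 4. Interaction values ran from -0.056 to 0.44 for Mcm4, -0.13 to 0.42 for Pole, -0.021 to 0.26 for Lig1, -0.00044 to 0.17 for Ccne1 and -0.22 to 0.26 for E2f8. The gene-level F test of bin use called 3 genes. Single E2F words were found for 17.5% (TTTCCCGC), 15% (TTTGGCGC), 17.5% (TTTCGCGC) and 0% (TTTGCCGC) of the 40 promoters, and 32.5% held any word in the shorter window. Within R, limma-voom called 36 and median-ratio scaling 33 of the 48; these, the fits within a letter that leave out a library and the comparison of the controls were added after the data were seen.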
